A study of Mus musculus with 8 samples.

Results

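The ADAM, ADAMTS and ADAMTS-like genes were compared between old and young RPE/choroid, the retinal pigment epithelium together with the vascular layer beneath it. A gene belonged to the family when its symbol was Adam, Adamts or Adamtsl followed by a number, with or without 1 further letter. It was measured when at least 1 probe set of the array was annotated to that gene alone, and where there were several, the one brightest on average over the 8 arrays (mean of log2) stood for it. By this rule 48 of 18193 genes were members, measured by 82 probe sets. Of 58 family genes known from the array annotation and RefSeq, the other 10 (Adam20, Adam26b, Adam29, Adam30, Adam34l, Adam39, Adamts2, Adamts13, Adamts14 and Adamts17) were not analysed here.

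Total RNA came from male C57BL/6 mice, for which the labels give no genetic change or treatment, 26 months of age in the old group and 4 months in the young group. There were 4 old and 4 young samples, each on 1 Affymetrix array. RNA of 2 animals, 4 RPE/choroids, was pooled for each sample, and the spread between single mice is therefore not seen. The tissue was not separated into its cells. In such a mixture, fewer cells of a type and less RNA per cell cannot be told apart.

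ADAMs are membrane proteins with a disintegrin domain, and those with an intact metalloprotease site cut the outer parts of other membrane proteins off the cell, a step called ectodomain shedding. ADAMTS enzymes are secreted, carry thrombospondin repeats and cut matrix proteins such as proteoglycans and procollagens. ADAMTS-like proteins have the repeats but no protease domain and lie in the matrix. In this tissue, mutations of human ADAM9 are known from an inherited cone-rod dystrophy, and mutations of the inhibitor TIMP3 from Sorsby fundus dystrophy.

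The promoter windows of the members that carry most of what follows are shown, so that the gene starts behind them can be read: Adam8, the member with the largest rise, Adamtsl3, the largest rise outside the ADAMs, and Adam17, the best-known sheddase, which was not called. The windows are from RefSeq (build GRCm38.p6), run 5′ to 3′ on the strand of the gene, and cover 250 bases before the start and 50 after it. Capitals mark GGGCGG, the GC box, or its reverse complement CCGCCC. The Adam8 window lies on the minus strand at chr7:139992513-139992812, the Adamtsl3 window on the plus strand at chr7:82335444-82335743 and the Adam17 window on the minus strand at chr12:21373583-21373882.
Adam8: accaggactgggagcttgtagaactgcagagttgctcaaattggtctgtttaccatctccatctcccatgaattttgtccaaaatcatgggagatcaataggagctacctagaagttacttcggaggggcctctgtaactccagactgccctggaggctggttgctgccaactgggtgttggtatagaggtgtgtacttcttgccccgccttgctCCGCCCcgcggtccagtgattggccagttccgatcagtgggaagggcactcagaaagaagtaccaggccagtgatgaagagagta
Adamtsl3: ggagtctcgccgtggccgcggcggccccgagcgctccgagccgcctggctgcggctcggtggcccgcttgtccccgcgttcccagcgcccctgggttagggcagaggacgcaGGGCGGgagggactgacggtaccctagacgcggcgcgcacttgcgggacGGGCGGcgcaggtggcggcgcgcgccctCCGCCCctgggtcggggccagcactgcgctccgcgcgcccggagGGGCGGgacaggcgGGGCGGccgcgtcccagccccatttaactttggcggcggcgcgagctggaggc
Adam17: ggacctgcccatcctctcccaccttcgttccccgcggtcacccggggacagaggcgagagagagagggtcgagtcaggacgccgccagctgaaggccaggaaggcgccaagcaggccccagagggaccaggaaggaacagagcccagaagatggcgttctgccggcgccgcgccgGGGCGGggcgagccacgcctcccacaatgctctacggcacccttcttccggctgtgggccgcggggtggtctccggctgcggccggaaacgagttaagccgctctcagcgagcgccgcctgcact
The Adamtsl3 window held 5 GC boxes and 46 CpG, the Adam17 window 1 and 30, and the Adam8 window 1 and 6. The median over 32851 windows of the same length was 7 CpG. The windows were also searched for the TATA box, written TATAAA, on both strands. The site of AP-1 was written as TGANTCA, and the core site of ETS factors as GAGGAA. None of these was found on either strand of the windows shown.

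Windows were at hand for 24 of the 48 members, 26 in all because Adam19 had 3. Both strands were searched, and none of these motifs contains another, though matches may overlap in part. A GC box was found in 14 member windows, while 35.7% of all windows held one. The TATA box was found in 4 (13.6% of all windows), the AP-1 site in 3 (7.81%) and the ETS core in 5 (28.3%). The median of the member windows was 14.5 CpG. Among the called genes, Adam8, Adam19, Adam6b, Adamtsl3 and Adamtsl5 had windows, which ranged between 0 and 46 CpG. These matches describe the letters of the windows and were not compared with the changes of age.

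Of the 48 members, 8 were higher and 3 were lower in old RPE/choroid at an adjusted p under 0.05 (limma, two-sided, Benjamini-Hochberg over 45037 probe sets). Intensities are given as deposited, on a linear scale, and fold changes are log2 of old over young, with the standard error of the fit. The higher members were Adam8, Adamtsl3, Adam19, Adam24, Adam6b, Adamtsl5, Adam33 and Adam9, and the lower ones Adam7, Adam12 and Adam4. None of 15 ADAMTS proteases was called in either direction by its representative probe set, although some alternatives called Adamts15, Adamts4 or Adamts18, as given with these genes. The plot of fold changes by role shows these groups.

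The share of members called was 22.9%, close to the 21.3% of all genes. Higher members made up 16.7% against 11.8% of all genes, and lower members 6.25% against 9.56%. Past a fold of 2 and an adjusted p under 0.01 were 2 members, Adam8 and Adam7, where 1.23% of all genes passed. The old and young arrays did not overlap in 15 members (31.2%), against 29.5% of all genes. The median log2 fold change was 0.00 over the members and -0.02 over all genes, and the median size of change was 0.14 and 0.13. As many members had a positive as a negative value, 24 each, and 45 of 48 lay within 0.5 of 0. The family as a whole therefore stood near the background of all genes, and its results are those of single members.

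**Figure D1:**
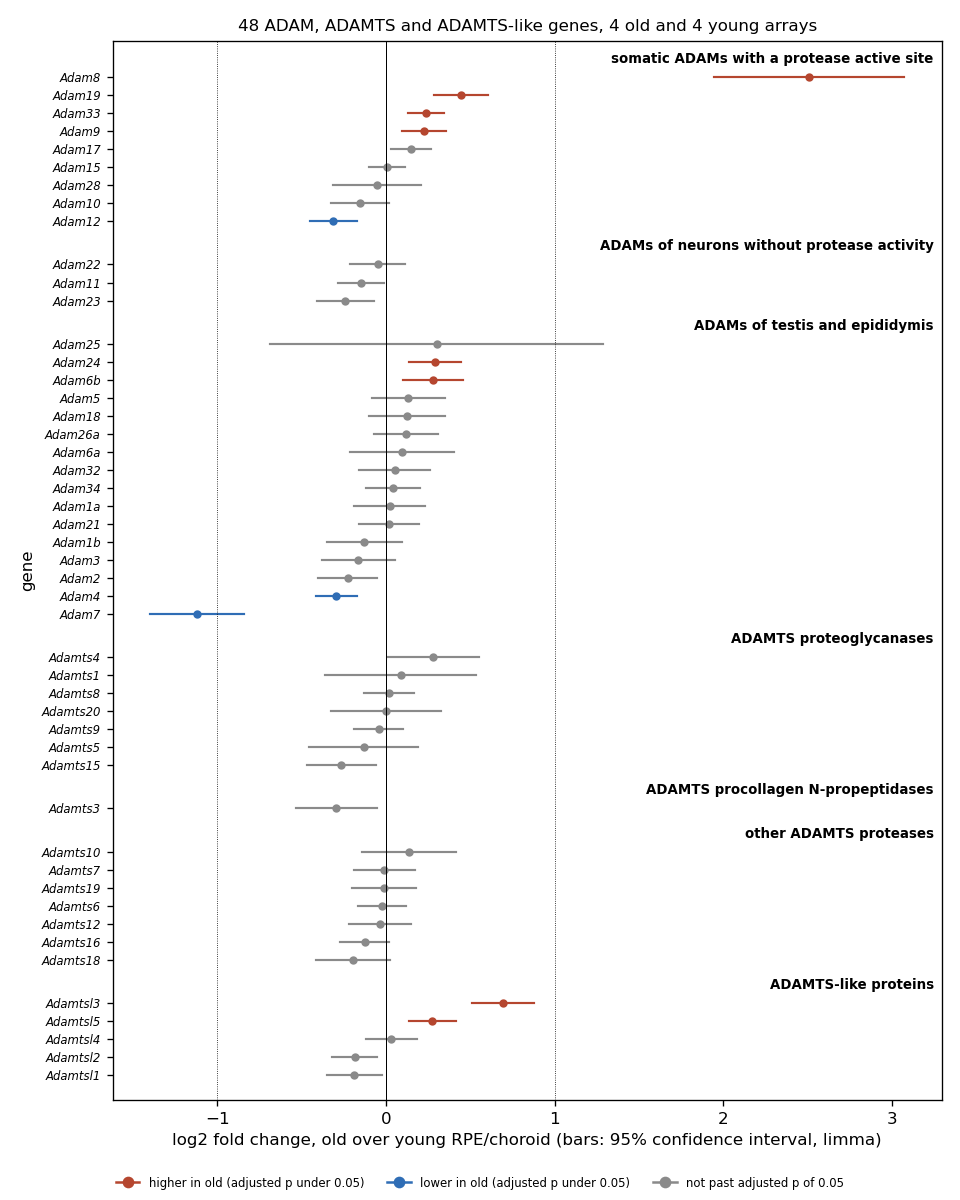
Log2 fold change of old over young RPE/choroid for the 48 members, by role; points are limma estimates from 4 old and 4 young arrays, bars the 95% confidence interval and dotted lines a fold of 2. Adam8 (2.51) and Adam7 (-1.12) lie beyond the dotted lines, and all 15 ADAMTS proteases are grey, not past an adjusted p of 0.05.

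Adam8 encodes a cell surface protease known from granulocytes, monocytes and osteoclasts. Its intensity (1 probe set, chromosome 7) was 330, 839, 673 and 498 in old samples 1 to 4, and 85.2, 112, 104 and 88.4 in young samples 1 to 4. Every old sample was well above every young one, and the old samples spread over a far wider range than the young. Adam8 averaged 585 ± 220 in old and 97.5 ± 12.9 in young RPE/choroid (SD, n = 4 each), a log2 fold change of 2.51 ± 0.25 (SE), or 5.70-fold (adjusted p = 0.000284, limma). It was 2.31 without old sample 2 (adjusted p = 0.000702, limma), the lowest value when 1 array was left out.

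The summed markers of several leukocyte types were higher in every old sample than in every young one, though not all single markers were. Of 16 macrophage markers, 12 were higher (75.0%, against 11.8% of all genes) and 0 lower (against 9.56%). Their summed intensity was 50723 to 55519 in old and 29369 to 33303 in young samples. Their mean of log2 values centred per marker was 0.316, 0.704, 0.472 and 0.309 in old samples 1 to 4, highest in old sample 2, as was Adam8. In young samples it was -0.509 to -0.356. The sum of 9 neutrophil markers was 18155 in old sample 2, where Adam8 was highest, 1799 in old sample 1, where Adam8 was lowest among the old, and 2924 and 3053 in old samples 3 and 4, against 1456 to 1766 in young samples. Of these 9, 2 were higher and 1 lower. As a mean of log2 values centred per marker, the ages overlapped, with -0.320 in old sample 1 and -0.314 in young sample 4. The sum of 11 T cell markers was 2897 to 3828 in old and 1888 to 2087 in young samples, with 5 higher and 1 lower. The sum of 9 mast cell markers was 1140 to 1493 in old and 978 to 1039 in young samples (5 higher, 1 lower), and that of 9 B and plasma cell markers 5190 to 6926 in old and 4333 to 4769 in young samples (2 higher, 2 lower). No marker of these lists was at the floor of 1. The part of these cells in the Adam8 difference was not tested.

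**Figure D2:**
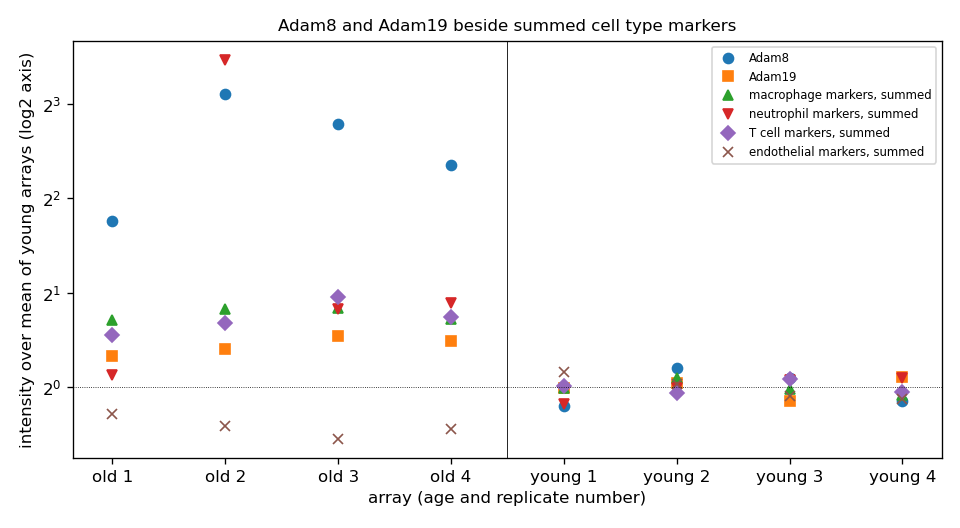
Intensity in each array over the mean of the 4 young arrays (log2 axis), for Adam8, Adam19 and the summed markers of 4 cell types; each point is 1 array, which pools 2 animals. Adam8 is above every young array in all old arrays and highest in old sample 2, where the neutrophil sum (18155) also peaks. The macrophage sums of the old samples lie close together, but the mean of centred log2 values of these markers, not plotted, was also highest in old sample 2 (0.704).

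The other somatic ADAMs with an active site moved far less. Adam19 (meltrin beta), which sheds neuregulins and is needed for heart valve development, had an intensity of 255, 268, 293 and 284 in old and 201, 208, 182 and 217 in young samples. The groups did not overlap. The log2 fold change of Adam19 was 0.45 ± 0.07 (adjusted p = 0.00353, limma), and its second probe set was higher too, at 0.24. The leukocyte marker sums given for Adam8 were higher in the same samples, and their part in the Adam19 difference was not tested either.

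Adam33, known from airway mesenchyme and human asthma genetics, had 193, 190, 191 and 198 in old and 167, 166, 161 and 161 in young samples. Its change was small but the samples of an age lay very close together, with a log2 fold change of 0.24 ± 0.05 (adjusted p = 0.00958, limma) and 0.45 by its other probe set. Adam9, the gene of the human cone-rod dystrophy named above, had 1929, 2033, 1956 and 2040 in old and 1758, 1806, 1628 and 1618 in young samples. This was a log2 fold change of 0.23 ± 0.06 (adjusted p = 0.0255, limma). The Adam9 call was lost when old sample 2, 3 or 4 or young sample 3 or 4 was left out, with values of 0.20 to 0.23.

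Adam12 (meltrin alpha), a protease of muscle precursors and mesenchyme that can release heparin-binding EGF, was the 1 lower gene among these 9. It had 117, 106, 104 and 109 in old and 139, 128, 145 and 131 in young samples. The old samples all lay below the young, by a log2 fold change of -0.31 ± 0.06 (adjusted p = 0.0102, limma), and the second probe set gave -0.34.

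The main general sheddases did not pass the test. Adam10, which cuts Notch receptors and N-cadherin, averaged 1447 ± 107 in old and 1611 ± 121 in young samples (SD, n = 4 each), a log2 fold change of -0.15 with a 95% interval between -0.33 and 0.02 (adjusted p = 0.192, limma). Adam17, which releases tumor necrosis factor and EGF receptor ligands, was singled out after its values were seen. It had 682, 635, 690 and 646 in old and 605, 578, 597 and 617 in young samples, without overlap, and a log2 fold change of 0.15 with an interval between 0.03 and 0.27 (adjusted p = 0.0853, limma). Its other probe sets gave 0.18 and 0.19, and neither passed.

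Adam15, a widely expressed ADAM also found in vessel walls, averaged 1016 ± 8.86 in old and 1011 ± 22.6 in young samples by its brightest probe set, of a type that can bind more than 1 transcript (0.01, adjusted p = 0.931, limma). Another of its 4 probe sets was lower in old samples, at -0.28 (adjusted p = 0.0157, limma). The remaining probe sets gave -0.11 and -0.03 and did not pass. The size and the call of the Adam15 change therefore depended on the probe set. Adam28, an ADAM of lymphocytes, averaged 55.5 ± 8.77 in old and 57.3 ± 6.04 in young samples and was not called. In all, 4 of the 9 somatic ADAMs with an active site were higher (44.4%, against 11.8% of all genes) and 1 was lower (11.1%, against 9.56%). The Adam9 call among these was lost in 7 alternatives, and the role groups were drawn with earlier results of these data known.

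**Figure D3:**
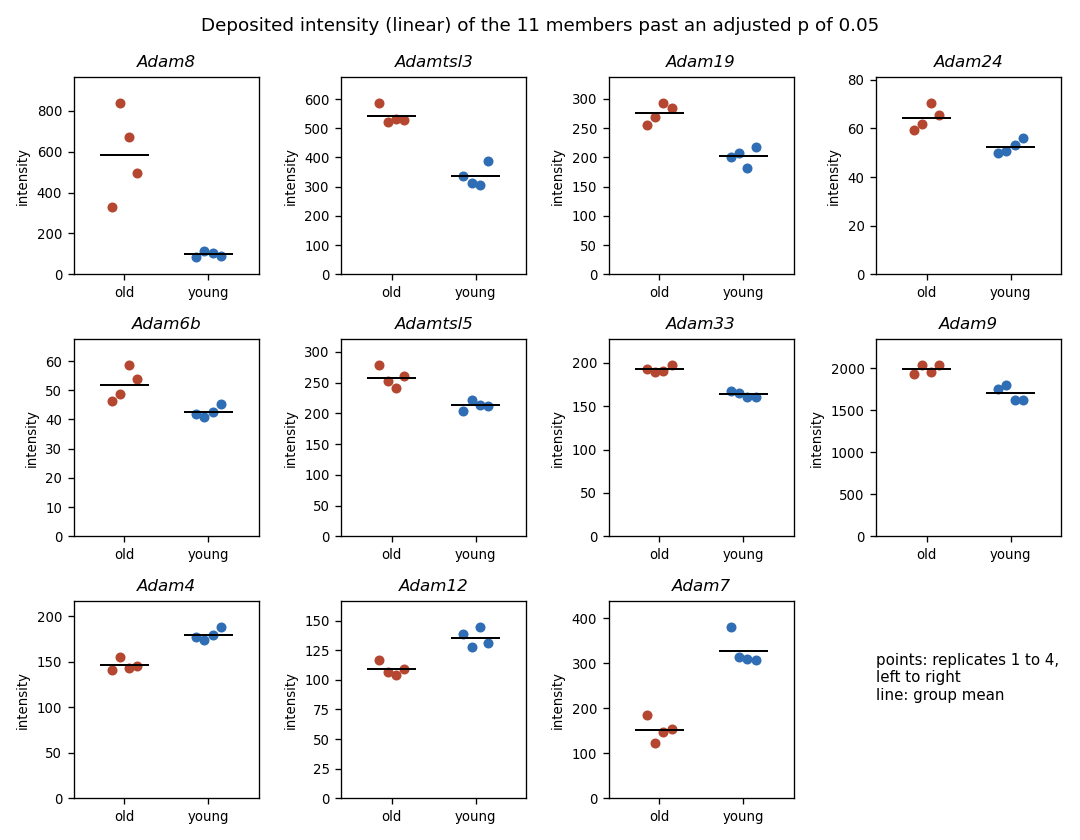
Deposited intensity (linear axis starting at 0) of the 11 called members in each of 4 old and 4 young arrays; points are arrays and lines group means. No called member overlaps between the ages, which their choice by adjusted p makes likely (29.5% of all genes do not overlap). The 4 old points of Adam8 (330 to 839) spread widely while those of Adam33 (190 to 198) lie close together.

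Adam11, Adam22 and Adam23 lack protease activity and act at synapses as receptors of the LGI proteins. None of the 3 was called in the reported fit. Their log2 fold changes were -0.15, -0.05 and -0.24, with Adam23 nearest to the threshold (adjusted p = 0.0552, limma). Adam23 was called in 4 alternatives: with a pseudocount of 16, under the filter on low values, with a trend and robust variances, and without young sample 3. These values are of its brightest probe set. The other Adam23 probe sets gave 0.02 and -0.21, and neither passed (adjusted p = 0.839 and 0.152, limma). The summed markers of inner retinal neurons, which could be carried over from the adjacent retina, were 8569, 9365, 8654 and 12458 in old samples 1 to 4 and 12106 to 12610 in young samples. The part of retinal tissue in these values was not tested.

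Another 16 measured members are known mainly from testis, sperm or epididymis, and most of these genes had low values here. Of all 48 members, 26 had a mean below the median of all probe sets (an intensity of 132) and 13 below the 25th percentile (61.1). At such values a probe set may report mostly background. Of the 16, 2 were higher (12.5%, near the 11.8% of all genes) and 2 were lower (12.5%, against 9.56%).

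Adam7, a catalytically inactive ADAM of the epididymis that is transferred to sperm, was the member with the largest fall. Its intensity (1 probe set, chromosome 14) was 185, 122, 147 and 153 in old and 380, 315, 308 and 308 in young samples. The highest old sample was far below the lowest young one. Adam7 averaged 152 ± 25.9 in old and 328 ± 35.1 in young RPE/choroid (SD, n = 4 each), a log2 fold change of -1.12 ± 0.12, or 0.460-fold (adjusted p = 0.000505, limma).

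In RefSeq, Adam7 lies beside Adam28 and Adamdec1 on chromosome 14. Adamdec1 encodes a soluble ADAM-like protease of macrophages and dendritic cells and falls outside the naming rule. Its intensity was 170, 155, 178 and 125 in old and 45.9, 46.2, 57.2 and 63.4 in young samples, higher in every old sample, with a log2 fold change of 1.56 ± 0.14 (adjusted p = 0.00015, limma). These 3 genes gave a fall (Adam7), a rise (Adamdec1) and no call (Adam28). On the other side of Adam7 lie, farther off, the neurofilament genes Nefl and Nefm, which were not called, with log2 fold changes of -1.41 and -1.04 (adjusted p = 0.0851 and 0.0909, limma). Nefl had 121, 104, 99.8 and 593 in old and 351, 427, 481 and 509 in young samples, and was high in old sample 4 alone among the old, unlike Adam7.

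Adam4, another gene of the testis, had 141, 155, 144 and 146 in old and 177, 174, 179 and 188 in young samples, a log2 fold change of -0.29 ± 0.05 (adjusted p = 0.00707, limma). Adam24 (testase 1), a sperm protease, had 59.3, 61.7, 70.5 and 65.4 in old and 49.96, 50.7, 53.0 and 56.0 in young samples, 0.29 ± 0.07 (adjusted p = 0.0199, limma). Adam6b, which lies within the immunoglobulin heavy chain locus and serves male fertility, had 46.3, 48.8, 58.7 and 53.8 in old and 41.7, 41.0, 42.6 and 45.3 in young samples, 0.28 ± 0.08 (adjusted p = 0.0403, limma). Adam24 and Adam6b were below the 25th percentile in their mean, and their old and young samples nearly met.

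The Adam24 call was lost without old sample 3 or young sample 1 (0.25 and 0.27), and the Adam6b call without old sample 2, 3 or 4 or any 1 young sample (0.22 to 0.31). Adam6b is nearly identical to Adam6a, and the probes may not tell the transcripts apart. A probe set that names both genes was not used. Adam6a itself averaged 49.99 ± 2.76 in old and 47.6 ± 9.53 in young samples and was not called. The remaining 11 genes of this group were not called either, and Adam25, with intensities of 2.71 to 9.82 in old and 2.18 to 6.15 in young samples, had the widest interval of the family, between -0.69 and 1.29.

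The ADAMTS proteases gave no call in the reported fit. Their 15 log2 fold changes lay between -0.29 (Adamts3) and 0.28 (Adamts4), with 4 above and 11 below 0, and 1 of the 15 (6.67%) did not overlap between the ages, against 29.5% of all genes. Adamts1, a proteoglycanase with anti-angiogenic activity, averaged 1079 ± 193 in old and 1034 ± 279 in young samples, and the samples of each age spread widely (0.09, interval between -0.36 and 0.54, adjusted p = 0.796, limma).

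Adamts4 and Adamts5, the main aggrecanases, gave 127 ± 21.9 and 246 ± 15.9 in old and 103 ± 9.34 and 274 ± 61.5 in young samples. Neither passed (adjusted p = 0.136 and 0.563, limma). Adamts15, also a proteoglycanase, was the ADAMTS whose groups did not overlap by its representative probe set. It had 257 to 290 in old and 292 to 389 in young samples, a log2 fold change of -0.26 (adjusted p = 0.0729, limma). Adamts15 was called in 4 alternatives: the filter on low values, eBayes with a trend and robust variances, array weights, and without young sample 2. Adamts4 was called without old sample 4, and Adamts18 when the probe sets of a gene were averaged. The second Adamts4 probe set was level, at -0.02 (adjusted p = 0.952, limma). Adamts9, an enzyme of endothelium and cilia, was nearly level at -0.04 by its brightest probe set. Its other probe sets gave 0.15, without overlap (adjusted p = 0.0936, limma), and -0.01.

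Adamts3, the 1 procollagen N-propeptidase measured, averaged 93.2 ± 10.4 in old and 114 ± 14.3 in young samples, -0.29 (adjusted p = 0.0872, limma). Adamts10, which binds fibrillin and is mutated in human Weill-Marchesani syndrome, averaged 818 ± 106 in old and 745 ± 106 in young samples, 0.14 (adjusted p = 0.472, limma). The other members of its group, Adamts6, Adamts7, Adamts12, Adamts16, Adamts18 and Adamts19, lay between -0.19 and -0.01.

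Of 5 ADAMTS-like proteins, 2 were higher (40.0%, against 11.8% of all genes) and 0 lower (against 9.56%). Adamtsl3 (punctin-2, 1 probe set on a gene of chromosome 7) had 587, 520, 531 and 528 in old and 337, 312, 307 and 387 in young samples. Its old samples were all well above the young ones. Adamtsl3 averaged 541 ± 30.6 in old and 336 ± 36.5 in young RPE/choroid (SD, n = 4 each), a log2 fold change of 0.69 ± 0.08, or 1.62-fold (adjusted p = 0.00074, limma). The summed markers of fibroblasts and sclera were 36123 in old sample 1, where Adamtsl3 was highest, 30405 to 31492 in the other old samples and 29784 to 32268 in young samples, and 1 of 10 was higher. Their part in the Adamtsl3 difference was not tested.

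Adamtsl5, a matrix protein that can bind fibrillin, had 279, 253, 241 and 261 in old and 204, 223, 214 and 212 in young samples, 0.28 ± 0.06 (adjusted p = 0.0148, limma), and its other probe set was higher as well, at 0.25. Adamtsl4, mutated in human ectopia lentis, averaged 760 ± 46.1 in old and 743 ± 46.1 in young samples (0.03, adjusted p = 0.778, limma). Adamtsl2 and Adamtsl1 had values of -0.19 each without overlap, and did not pass (adjusted p = 0.0621 and 0.107, limma), though Adamtsl2 was called in 5 alternatives. Of 3 Adamtsl1 probe sets, a dimmer one was lower, at -0.35 (adjusted p = 0.0165, limma).

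Of the 37 members that were not called, 9 had an unadjusted p under 0.05, and none had a log2 fold change beyond 0.30 in size. Their 95% intervals reached 0.19 to either side of the estimate in the median. More than 1 probe set measured 22 members. In none of these were probe sets called in opposite directions, and all probe sets of Adam19, Adam33, Adamtsl5 and Adam12 were called the same way. The other 7 called members rest on 1 probe set each.

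**Figure D4:**
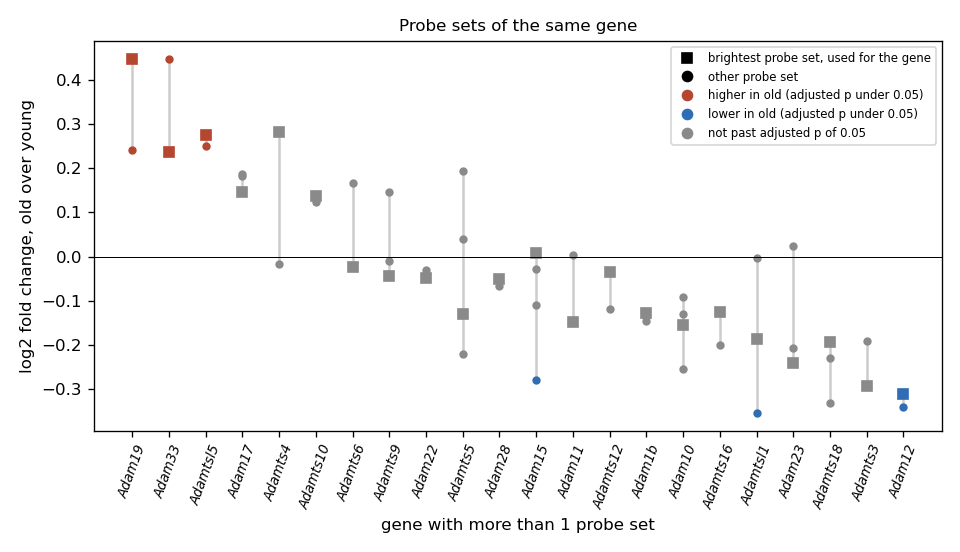
Log2 fold change of old over young for every probe set of the 22 members with more than 1; squares are the brightest probe set, used for the gene, circles the others, and grey lines join probe sets of a gene. Probe sets of Adam19, Adam33 and Adamtsl5 are all above 0 and those of Adam12 below 0, while Adam15 and Adamtsl1 have 1 lower probe set each besides their brightest.

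Genes that inhibit, mature or are cut by these proteases were listed from textbook knowledge, with earlier results of these data known. The authors had reported Timp1, Timp4, Icam1 and Vcam1, which are on the lists, as raised in these data. The share called is therefore not an independent result. Of 75 listed genes, 72 were measured. Of the 72, 18 were higher and 10 lower in old RPE/choroid (38.9%). The share of all genes called was 21.3%. Among 6 inhibitors, 3 were higher and 0 lower. Timp4 had 350, 359, 327 and 299 in old and 92.6, 92.0, 108 and 75.3 in young samples, 1.87 ± 0.11 (adjusted p = 3.34e-05, limma), far apart in all samples. Timp1 averaged 612 ± 69.8 in old and 257 ± 43.5 in young samples (1.26, adjusted p = 0.000305, limma), and Timp2 was 0.24 higher on the log2 scale. Timp3, the inhibitor of ADAM17 and the aggrecanases named above for Sorsby dystrophy and singled out here for that reason, had a log2 fold change of -0.10 and was not called.

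Among 13 maturation factors, 2 were higher (15.4%, against 11.8% of all genes) and 4 lower (30.8%, against 9.56%). The lower ones were Tspan10 and Tspan5, tetraspanins that escort ADAM10 to the cell surface, at -0.68 and -0.31, and the proprotein convertases Pcsk5 and Pcsk6, at -0.52 and -0.20. Tspan10 is an abundant transcript of pigment cells. It had 2182, 1632, 1533 and 1803 in old and 2823, 2818, 2902 and 2803 in young samples. The summed melanocyte markers were lower in the same old samples, at 42645 to 50518 against 53863 to 55418 in young samples, with 6 of 6 markers lower, and their part in the Tspan10 difference was not tested. Tspan17, of the same tetraspanin group, and Rhbdf1, a carrier of ADAM17, were higher, at 0.25 and 0.24.

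Of 33 membrane proteins known to be shed, 8 were higher (24.2%, against 11.8% of all genes) and 4 lower (12.1%, near the 9.56% of all genes). The largest rises were those of the chemokine Cxcl16 (1.44), the microglial and macrophage receptor Trem2 (1.44), the adhesion molecules Icam1 (1.14), Vcam1 (1.002) and Cd44 (0.87). Hbegf, heparin-binding EGF, was the most lowered, with 265, 212, 222 and 290 in old and 502, 420, 409 and 491 in young samples (-0.89 ± 0.11, adjusted p = 0.00111, limma). Cdh2, which encodes N-cadherin (-0.70, adjusted p = 0.000466, limma), Cdh5 (-0.41) and Egf (-0.31) were the other lower ones. The macrophage markers given above were higher in the samples in which Cxcl16 and Trem2 were, and the summed endothelial markers were lower, at 9746 to 11754 in old and 13118 to 15915 in young samples. Their part in the changes of the shed proteins was not tested.

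Of 15 matrix substrates and cofactors of ADAMTS enzymes, 4 were higher (26.7%, against 11.8% of all genes) and 1 lower (6.67%, against 9.56%). Bcan (brevican), a proteoglycan of neural tissue cut by ADAMTS4, had 1483, 2309, 2145 and 2532 in old and 411, 495, 388 and 314 in young samples, 2.39 ± 0.18 (adjusted p = 6.79e-05, limma), without overlap, from a probe set of the type that can bind more than 1 transcript. Fibronectin (Fn1) averaged 1686 ± 191 in old and 444 ± 47.9 in young samples (1.92, adjusted p = 2.85e-05, limma). Comp, a cartilage matrix protein cut by ADAMTS7 and ADAMTS12, was 1.40 and Bgn (biglycan) 0.40 higher on the log2 scale. Versican (Vcan) was lower, at -0.26, with 75.8 ± 0.565 in old and 91.1 ± 5.01 in young samples. Of 5 binding partners of the neuronal ADAMs, Lgi4 was higher (0.73) and Dlg4 lower (-0.42).

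**Figure D5:**
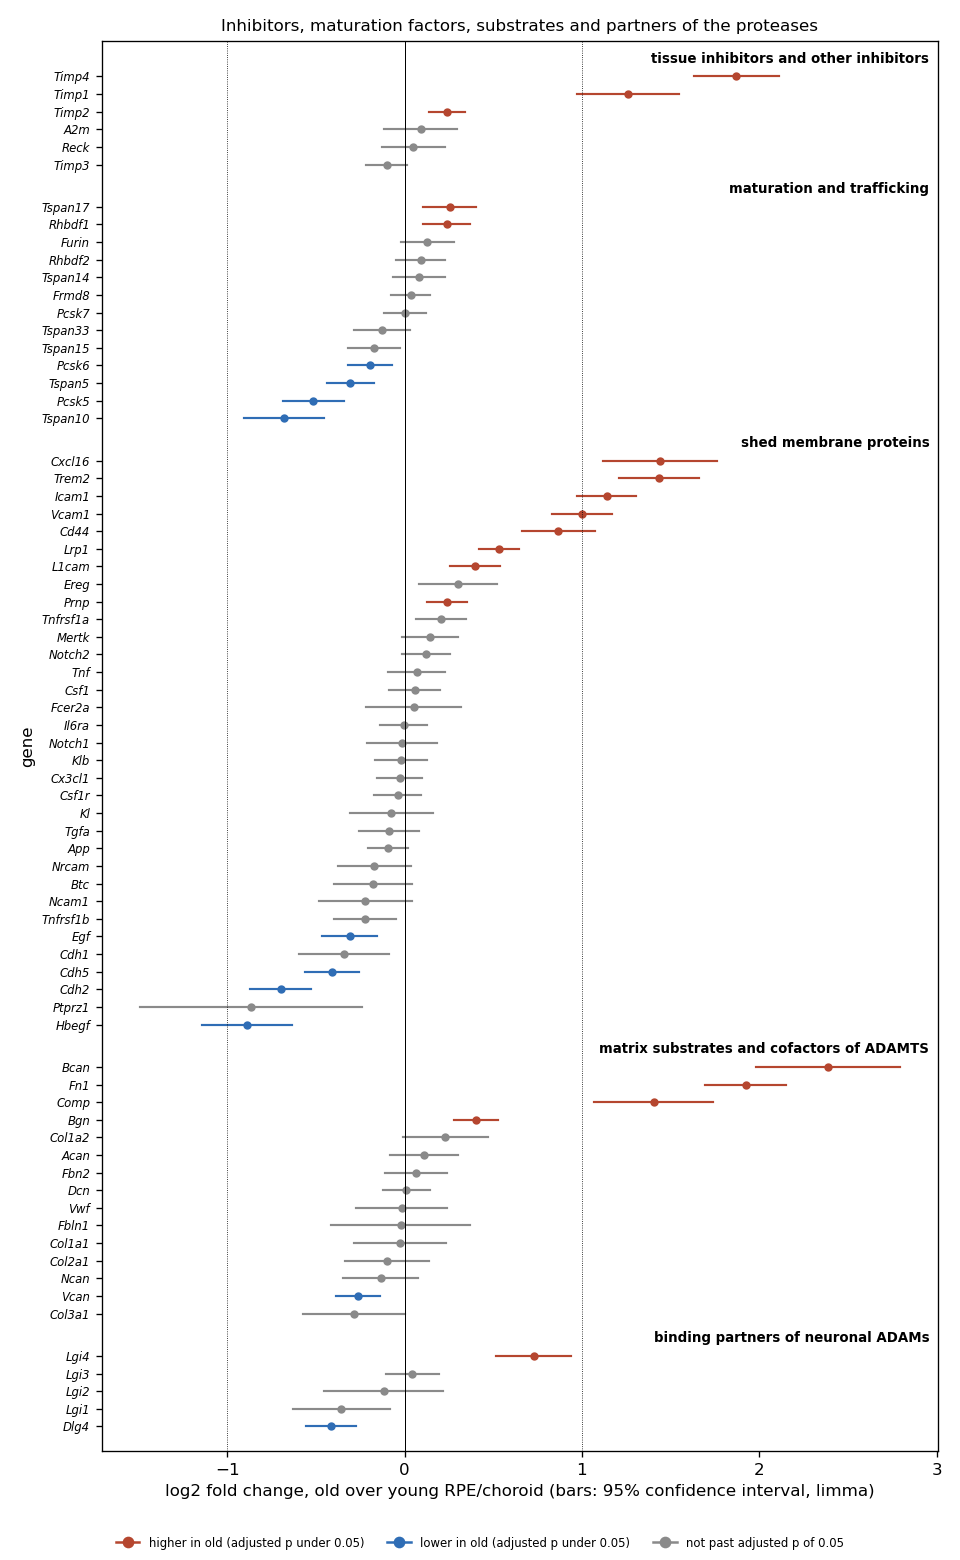
Log2 fold change of old over young for 72 inhibitors, maturation factors, substrates and partners, by list; points are limma estimates from 4 old and 4 young arrays, bars the 95% confidence interval and dotted lines a fold of 2. Timp4 (1.87), Timp1 (1.26), Bcan (2.39) and Fn1 (1.92) lie right of the upper dotted line, and Hbegf (-0.89) and Tspan10 (-0.68) are among the lowest called genes.

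As a check of the tissue, Rpe65, the visual cycle isomerase that defines the pigment epithelium, had 10807 to 11414 in old and 10929 to 12118 in young samples and was not called. The summed markers of that epithelium were 85071 to 89344 in old and 94358 to 98791 in young samples. Of 11 markers, 5 were lower (45.5%, against 9.56% of all genes). Rod and cone markers were also present, with 8050 to 20980 in old and 10191 to 21146 in young samples. Any array correlated with another of its age at 0.991 or more over the probe sets. Nothing in the labels gives a batch, and the number of arrays limits the precision of every value.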

How the data were processed

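Total RNA of RPE/choroid was hybridized to 8 Affymetrix mouse arrays, 4 old and 4 young, grouped by the titles of the samples. The authors normalized the intensity values before they were deposited. The methods name RMA, the invariant set method of Dchip and BRB-ArrayTools, and do not say which of these gave the table. The deposited intensities are linear, their distributions differ between arrays, and the 8 to 14 values per array below 1 were set to 1 before log2 was taken. Of 45101 probe sets, 64 controls were left out. Of the 45037 tested, 34945 name 1 gene in the platform annotation, 932 several and 9160 none. The annotation can be old, and 0 symbols changed through the gene IDs. Detection calls were not used.

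Old was compared with young in R 4.3.3 with limma 3.58.1 (lmFit and eBayes, no covariate, two-sided, Benjamini-Hochberg over all tested probe sets), after tests on simulated data. Tables and plots used Python 3.11.15, pandas 2.3.3 and matplotlib 3.10.9. A gene was called at an adjusted p under 0.05. Summed marker intensities served as descriptions. Every called member was named, and of the members not called, the 5 with the highest mean, with up to 6 called partners per list. Cdh2, Cdh5 and Egf are named beyond these to complete the lower shed proteins, after their values were seen. Other members that were not called, and Timp3, are named to complete their role groups and were chosen after their values were seen. The members, lists and rules were chosen with earlier results of these data known. The lists come from textbook knowledge. Alternatives were quantile normalization, median centring, a pseudocount of 16, a filter at the 25th percentile, weights for arrays, eBayes with a trend and robust variances, the mean of or any of the probe sets of a gene, the replicate number as a block, and leaving out each array. Windows before gene starts are from RefSeq tables, which are not complete.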

Additional observations from a re-analysis of the deposited data

Results flagged for a closer look

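Within the 4 arrays of an age, a value was singled out when its gap to the nearest other array took up most of the whole range of the group. Chance gives this in about 1 in 20 groups, and it was found in 3 of 96 groups of member and age. Adam34 in old sample 1 had an intensity of 23.2, against 20.2 to 20.4 in the other old samples, and the gap was 0.92 of the range. Adam7 in young sample 1 had 380, against 308 to 315 in the other young samples, a gap of 0.898 of the range. Adamtsl3 in old sample 1 had 587, against 520 to 531 in the other old samples, a gap of 0.833 of the range. Without the array that stood apart, Adam7 and Adamtsl3 kept their calls, with log2 fold changes of -1.05 and 0.65.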

How the results depend on the processing

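The 11 called members kept their direction in all 174 comparisons with an alternative, and their call in 158. Calls were lost 16 times, by Adam9 and Adam6b (7 each) and Adam24 (2), and Adam24 and Adam6b fell to the filter on low values. Adam9 was 0.16 after quantile normalization (adjusted p = 0.0696, limma). The number of members called was 8 to 12 when 1 array was left out and 10 to 14 otherwise, and 2 passed a fold of 2 in every alternative. Calls gained were those of Adamtsl2 (5 alternatives), Adam23 and Adamts15 (4 each), Adamtsl1 (2), and Adam2, Adam15, Adamts4 and Adamts18 (1 each). The filter on low values gave 6 higher and 6 lower of 35 members (34.3%, against 29.0% of all genes). The mean of all probe sets of a gene gave 8 higher and 6 lower of 48 members (29.2%, against 22.8%). The number of all genes called was 2428 to 3981 with 1 array left out, lowest without old sample 3 and 2483 without young sample 3, against 3884 over all arrays. The median log2 fold change of the members was -0.03 to 0.02 with 1 array left out, and the number of partners called 25 to 32.

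Members near 0 changed sign without a call: Adam15 was -0.0540 after quantile normalization, -0.103 as the mean of its probe sets and -0.00548 to 0.0177 with 1 array left out. Adamtsl4 was -0.0218 after quantile normalization and -0.000143 to 0.0706 with 1 array left out. Adamts1 was -0.0897 with array weights and -0.0940 to 0.203 with 1 array left out. The sign changed without young sample 4 (Adam15), old sample 4 (Adamtsl4), and old sample 2 or young sample 1 (Adamts1). The cause was not tested.

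Neither the labels nor the methods pair old with young samples. After removal of the age effect, same-numbered samples correlated at 0.0971, 0.0190, 0.0219 and 0.0427, the highest with the own number for replicate 1 alone. With the replicate number as a block, 10 members were called (7 higher, 3 lower), and Adam9 was the call lost (0.23, adjusted p = 0.0607, limma). Adam8 stayed at 2.51 with the block (adjusted p = 0.000592, limma).

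Each replicate pools 2 animals, the deposited values carry no background estimate, and 13 members lay below the 25th percentile of intensity.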
